A study of Homo sapiens with 5 samples.

Results

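The 10 genes described here are regulators and effectors of the epithelial-to-mesenchymal transition (EMT). They were chosen by symbol, with earlier results of these data known, from 20026 genes in the RNA-seq tables. The transcription factors are TWIST1, TWIST2, SNAI1, SNAI2, ZEB1 and ZEB2, and the effectors are the cadherins CDH1 and CDH2, the filament protein gene VIM and the matrix protein gene FN1. All samples were HCT116 cells, an established human colorectal carcinoma line of epithelial origin. The 2 control samples carried the lentiviral pLKO.1 vector, and the 3 ELK4 knockdown samples each carried a different hairpin against ELK4 (shELK4_1, shELK4_2 and shELK4_3). Every sample was a puromycin-selected stable population, so the effect of a hairpin cannot be told apart from differences between single cultures. The hairpin of each knockdown sample is inferred from its title, which matches a hairpin name of the study. Nothing in the labels says whether the 2 controls came from separate transductions, and the p-values measure only the spread between these samples.

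In EMT, epithelial cells loosen their junctions and take on a migratory, mesenchymal character. SNAIL, ZEB and TWIST factors bind short E-box sequences. SNAI1, SNAI2, ZEB1 and ZEB2 are known above all as repressors of CDH1, the gene of E-cadherin, which holds epithelial cells together. A rise of VIM (vimentin), CDH2 (N-cadherin) and FN1 (fibronectin) is the textbook mesenchymal counterpart. The factors are encoded by separate genes that answer to different signals, and a carcinoma line may express some of them and not others. The comparison asks whether TWIST1 moved alone or with the other EMT genes after ELK4 knockdown, hairpin by hairpin.

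Levels are in FPKM, fragments scaled to transcript length and to the mapped reads of the sample, which the authors deposited without read counts, so depth is unknown and the precision rests on the spread between samples. The FPKM of all genes summed to 309139 to 319870 per sample. ELK4 had 8.63 and 7.60 FPKM in the controls, against 3.14, 2.82 and 2.44 with shELK4_1, shELK4_2 and shELK4_3. The targeted gene was thus lower in each knockdown sample. Of the 7 colorectal epithelial markers, EPCAM, KRT8, KRT18, KRT19 and CDH1 were above 1 FPKM in each sample, whereas CDH17 and VIL1 of the differentiated intestine stayed below 1 FPKM. The summed level of the 7 markers was 2615 to 2655 FPKM in the controls, against 1476 to 1989 in the knockdown samples. Most of this sum came from KRT8, KRT18 and KRT19, which are also in the epithelial list below. EPCAM had 156.0 and 157.5 FPKM in the controls, against 165.7, 137.1 and 118.4 with shELK4_1, shELK4_2 and shELK4_3. EPCAM and CDH1 both lay above the controls with shELK4_1, so the sum does not describe every marker. The 6 fibroblast markers summed to 3.19 to 3.39 FPKM in the controls, against 3.71 to 4.39 in the knockdown samples, with 5 of the 6 below 1 in each sample. All 6 endothelial and blood cell markers stayed below 1 FPKM, and CDH5 and CD3E were listed at 0 throughout. The part of these marker differences in the results below was not tested.

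Of the 10 genes, 4 (CDH1, SNAI1, VIM and FN1) reached the limit of 1 FPKM in 2 or more samples. This limit gave 10780 genes for the main limma test on log2(FPKM + 1). VIM reached it through shELK4_2 and shELK4_3 alone. TWIST1, SNAI2, ZEB1, ZEB2 and CDH2 were fitted with the 16223 genes above 0 in at least 1 sample, and TWIST2 was listed at 0 in all 5 samples. On average over the 5 samples, CDH1 was the highest with 17.8 FPKM, followed by SNAI1 with 10.5 and FN1 with 1.56. VIM (0.642), ZEB1 (0.577), TWIST1 (0.348) and SNAI2 (0.340) lay below 1, with overlapping ranges. CDH2 and ZEB2 did not exceed 0.0249 and 0.0126 FPKM in any sample. Of the EMT factors, SNAI1 alone was thus expressed at a level near that of the epithelial effector CDH1.

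**Figure D1:**
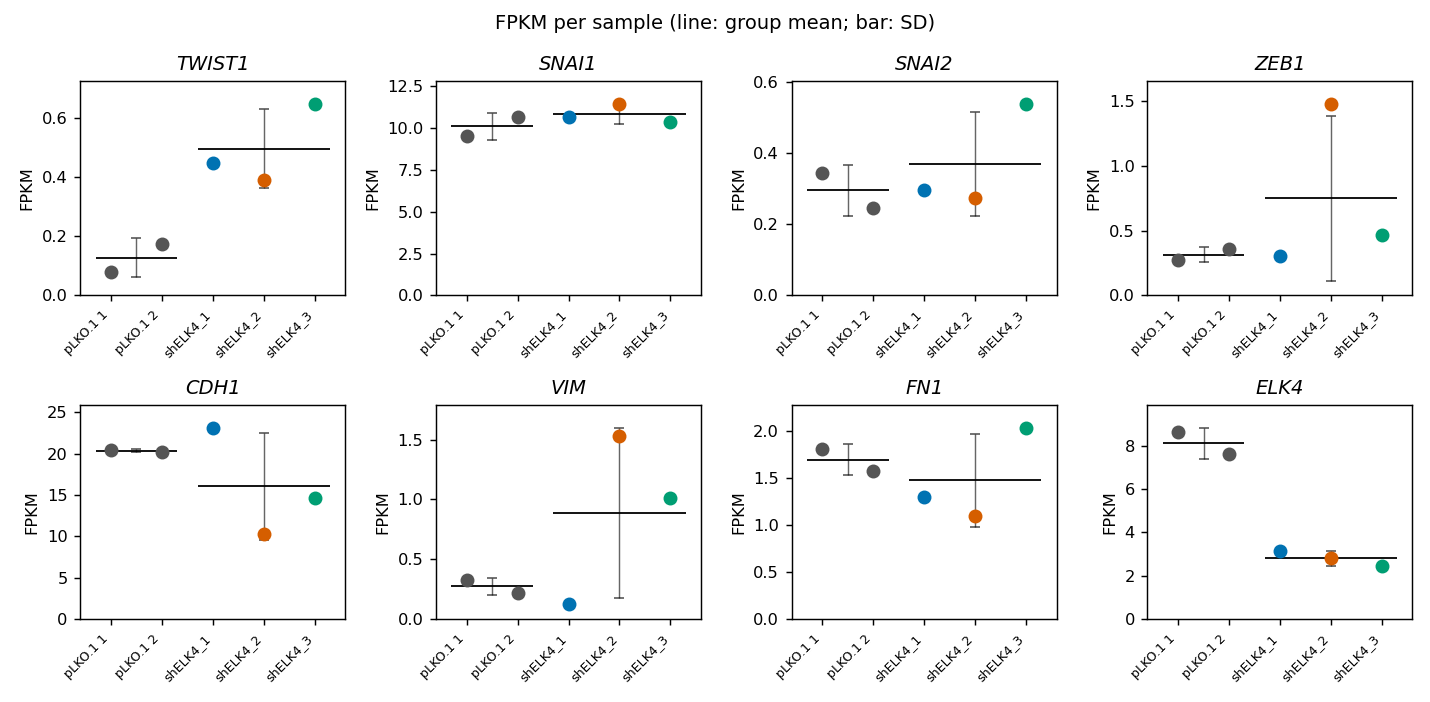
FPKM (y axes, from 0) of TWIST1, SNAI1, SNAI2, ZEB1, CDH1, VIM, FN1 and the targeted gene ELK4 in each of the 5 samples (x axes). Points are samples, horizontal lines are group means and vertical bars are SDs (n = 2 pLKO.1, n = 3 shELK4). TWIST1 lies above both controls in all 3 knockdown samples, between 0.391 and 0.646 FPKM, whereas ZEB1 stands out with shELK4_2 alone, with 1.48 FPKM.

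The sequences before the transcription starts of ZEB1, VIM and FN1 are shown because ZEB1 and VIM moved together with shELK4_2 while FN1 did not (values below). Of the 10 genes, 6 had entries in the RefSeq promoter table (GRCh38.p14). For each of the 3 genes the window holds the 250 bases before the start of the canonical transcript, 5′ to 3′ on the gene's strand. It is chr10:31318966-31319215 (plus strand) for ZEB1, chr10:17227991-17228240 (plus) for VIM and chr2:215436069-215436318 (minus) for FN1. Capitals mark matches, on either strand, to an ETS core (CCGGAA), to the E-box CACCTG, which SNAIL and ZEB factors bind, or to a GC box (CCCCGCCCC), which SP1 and SP3 bind.
ZEB1: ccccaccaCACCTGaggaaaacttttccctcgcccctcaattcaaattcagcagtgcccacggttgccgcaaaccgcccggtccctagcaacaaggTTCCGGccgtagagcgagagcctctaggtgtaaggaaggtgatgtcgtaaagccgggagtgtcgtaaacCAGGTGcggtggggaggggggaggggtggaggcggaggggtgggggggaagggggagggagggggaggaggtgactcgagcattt
VIM: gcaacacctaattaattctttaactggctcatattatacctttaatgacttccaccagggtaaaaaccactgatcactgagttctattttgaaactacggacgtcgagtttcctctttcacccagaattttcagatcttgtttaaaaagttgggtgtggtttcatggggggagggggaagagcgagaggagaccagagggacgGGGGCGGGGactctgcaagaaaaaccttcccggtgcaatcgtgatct
FN1: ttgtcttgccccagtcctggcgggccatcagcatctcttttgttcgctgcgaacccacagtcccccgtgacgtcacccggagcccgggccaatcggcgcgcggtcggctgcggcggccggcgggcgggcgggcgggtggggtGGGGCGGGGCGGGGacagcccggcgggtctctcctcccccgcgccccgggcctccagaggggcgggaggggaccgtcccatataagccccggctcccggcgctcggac
The ZEB1 window held 2 E-boxes, 242 and 85 bases before the start, and 1 ETS core at 154 bases. The VIM window held 1 GC box at 47 bases, and the FN1 window held 2 overlapping GC boxes at 108 and 103 bases. Among 35116 windows of the same length in the table, 14.5% held the ETS core, 17.5% the E-box and 15.1% the GC box. These matches describe the letters of the windows and no binding was measured here.

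TWIST1 was the only member for which the knockdown samples and the controls did not overlap. TWIST1 (ENSG00000122691, GRCh38 chromosome 7, 19020991 to 19117636, minus strand) encodes a basic helix-loop-helix factor of mesoderm and neural crest. Its FPKM was 0.0800 and 0.174 in the controls, and 0.449 with shELK4_1, 0.391 with shELK4_2 and 0.646 with shELK4_3. Each hairpin was thus above both controls, by 3.54, 3.08 and 5.10 times the control mean. The control mean was 0.127 ± 0.0661 FPKM (SD, n = 2) and the knockdown mean 0.495 ± 0.134 (SD, n = 3), a ratio of 3.91. On log2(FPKM + 1) the difference was 0.41 (standard error 0.08, unadjusted p = 0.00528, adjusted p = 0.195 from limma over the genes above 0), so TWIST1 did not pass the adjusted threshold. The low level matters for this value, since with a pseudocount of 0.1 the same difference was 1.40 (adjusted p = 0.185 from limma). The study had listed TWIST1 as higher on these same samples by an unadjusted p. Its adjusted p in that list did not pass the threshold that the study states. The direction of TWIST1 is thus not independent evidence. Exons of another annotated gene cover 7.06% of its exonic bases, and the strandedness of the libraries is not given in the sources used here.

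By the share of all genes, a separation of groups was common. Groups did not overlap for 33.6% of the 16223 genes above 0, against 1 of the 9 members above 0. An unadjusted p under 0.05 was reached by 14% of those genes and by 1 of the 9 members, again TWIST1. After adjustment, limma called 0 of the 9 members in that fit, where it called 0% of all genes. It also called 0 of the 4 members at the FPKM limit, where 0.167% of genes were called and 16.2% had an unadjusted p under 0.05, against 0 of the 4 members. VIM is 1 of these 4 and passed the limit through knockdown samples alone, so these counts should be read for CDH1, SNAI1 and FN1.

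The paralog TWIST2 stayed at 0 in every sample. The genes near TWIST1 on chromosome 7 did not share its pattern. POLR1F, listed under its older symbol TWISTNB, encodes an RNA polymerase I subunit and had 14.9 and 16.3 FPKM in the controls against 15.2, 15.0 and 16.7 in the knockdown samples. HDAC9, a histone deacetylase gene, had 0.301 and 0.383 FPKM against 0.109, 0.379 and 0.187, and FERD3L was listed at 0. For both expressed neighbours the groups overlapped.

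The SNAIL factors differed from TWIST1 in the controls already. SNAI1 (ENSG00000124216, chromosome 20, 49982980 to 49988886), which encodes SNAIL, had 9.53 and 10.7 FPKM in the controls, against 10.7, 11.4 and 10.3 with shELK4_1, shELK4_2 and shELK4_3. The groups overlapped, and the log2 difference was 0.09 (standard error 0.10, adjusted p = 0.673 from limma). SNAI2, which encodes SLUG, had 0.346 and 0.245 FPKM in the controls, against 0.298, 0.274 and 0.539 in the 3 hairpins. Here shELK4_1 and shELK4_2 lay between the controls and shELK4_3 lay above them, and the log2 difference was 0.08 (standard error 0.10, adjusted p = 0.773 from limma).

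ZEB1 stood far higher with shELK4_2 than with the other hairpins. ZEB1 (ENSG00000148516, chromosome 10, 31318495 to 31529814) encodes a zinc-finger repressor of epithelial genes. Its FPKM was 0.277 and 0.356 in the controls, 0.302 with shELK4_1, 1.48 with shELK4_2 and 0.468 with shELK4_3. These are 0.954, 4.68 and 1.48 times the control mean, so shELK4_1 lay between the controls. The mean over the 3 hairpins was 0.750 ± 0.638 FPKM (SD, n = 3) against 0.316 ± 0.0560 (SD, n = 2), a log2 difference of 0.35 (standard error 0.29, adjusted p = 0.650 from limma). Without shELK4 replicate 2 the log2 difference was 0.07, so the value rests on that sample. ZEB2 did not exceed 0.0126 FPKM and was at 0 in pLKO.1 replicate 1 and with shELK4_1.

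E-cadherin RNA went in opposite directions with different hairpins. CDH1 (ENSG00000039068, chromosome 16, 68737292 to 68835537) had 20.5 and 20.3 FPKM in the controls, 23.1 with shELK4_1, 10.3 with shELK4_2 and 14.7 with shELK4_3. The controls lay close together, shELK4_1 was above them, and shELK4_2 and shELK4_3 were below, at 0.508 and 0.720 times the control mean. The group means were 20.4 ± 0.153 FPKM (SD, n = 2) and 16.0 ± 6.51 (SD, n = 3). The log2 difference was −0.40 (standard error 0.29, adjusted p = 0.523 from limma) and did not exceed the spread among hairpins. Without shELK4 replicate 1 it was −0.68 (adjusted p = 0.172 from limma), and without shELK4 replicate 2 it was −0.14.

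VIM showed the mirror image of CDH1, at a much lower level. VIM (ENSG00000026025, chromosome 10, 17228241 to 17237593) had 0.325 and 0.221 FPKM in the controls, 0.125 with shELK4_1, 1.53 with shELK4_2 and 1.01 with shELK4_3. The first hairpin lay below both controls, at 0.456 times their mean, and the others above them, at 5.59 and 3.71 times. Since VIM reached the FPKM limit through 2 knockdown samples alone, its test is given over the genes above 0. The log2 difference was 0.49 (standard error 0.35, adjusted p = 0.595 from limma), and without shELK4 replicate 1 it was 0.83 (adjusted p = 0.227 from limma). Exons of VIM-AS1 and another annotated gene cover 24.6% of the exonic bases of VIM, so its reads could be split between them.

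Set against each other per sample, E-cadherin and vimentin RNA gave a CDH1 to VIM ratio of 63.0 and 91.5 in the controls. The ratio was 186 with shELK4_1, 6.77 with shELK4_2 and 14.5 with shELK4_3. The hairpins thus lay on both sides of the controls. The CDH1 to ZEB1 ratio was 74.0 and 56.9 in the controls, 76.7 with shELK4_1, 6.99 with shELK4_2 and 31.3 with shELK4_3. In contrast, the TWIST1 to ZEB1 ratio was 0.289 and 0.487 in the controls and 0.264 with shELK4_2, but 1.49 with shELK4_1 and 1.38 with shELK4_3. In bulk RNA, fewer cells that express a gene and less RNA per cell cannot be told apart.

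The remaining mesenchymal effectors among the members did not follow VIM. FN1 (ENSG00000115414, chromosome 2, 215360440 to 215436073) had 1.81 and 1.57 FPKM in the controls, 1.29 with shELK4_1, 1.09 with shELK4_2 and 2.03 with shELK4_3. It was lowest in the sample with the highest VIM, and its log2 difference was −0.14 (standard error 0.17, adjusted p = 0.720 from limma). CDH2, the gene of N-cadherin, had 0 and 0.0249 FPKM in the controls. It was listed at 0 with shELK4_2 and shELK4_3 and had 0.00794 FPKM with shELK4_1. CDH2 RNA thus did not rise in the samples in which CDH1 was lower.

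**Figure D2:**
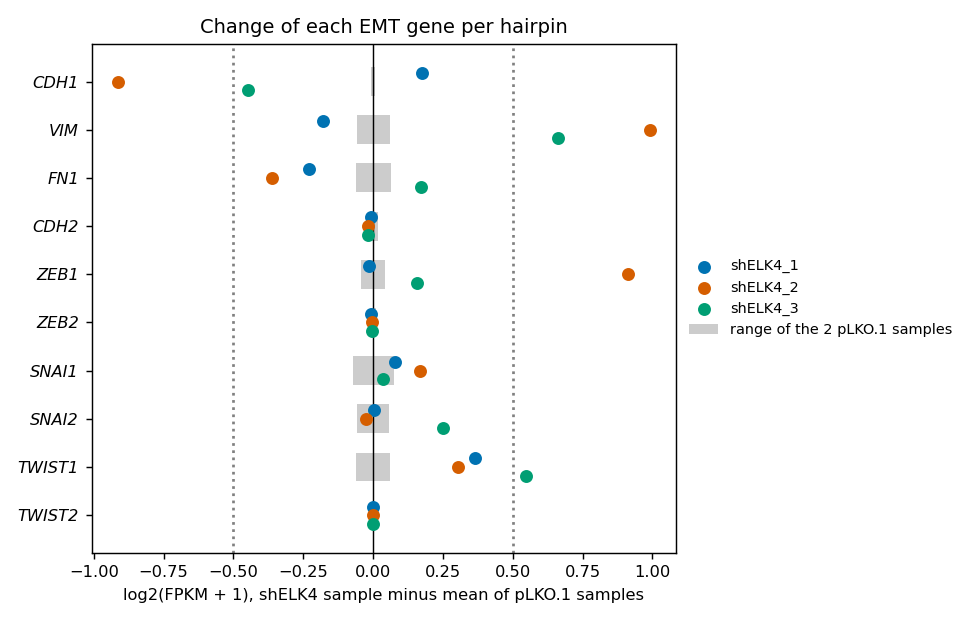
Difference in log2(FPKM + 1) between each shELK4 sample and the mean of the 2 pLKO.1 samples (x axis) for the 10 genes (y axis). Grey bars span the 2 controls, and dotted lines mark 0.5 either way. TWIST1 lies to the right of its bar with every hairpin (0.36, 0.31 and 0.55), while CDH1 ranges from 0.18 to −0.91 and VIM from −0.18 to 0.99.

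Each hairpin was 1 sample, so its changes were described by size without a test. A change of over 0.5 on log2(FPKM + 1), either way, was seen for 0 of the 9 members with shELK4_1, against 5.47% of genes above 0. With shELK4_2 it was seen for 3 members, with CDH1 lower (−0.91) and VIM (0.99) and ZEB1 (0.91) higher, against 6.31% of genes. With shELK4_3 it was seen for 2 members, VIM (0.66) and TWIST1 (0.55), both higher, against 5.42% of genes. The range between hairpins was 1.17 for VIM, 1.09 for CDH1 and 0.93 for ZEB1. Larger ranges were found for 1.03%, 1.42% and 2.67% of the 10780 genes at the FPKM limit. For TWIST1 the range was 0.24, and 55.8% of these genes had a larger one, with a median of 0.27. On this scale, which compresses low levels, CDH1, VIM and ZEB1 thus varied between hairpins more than nearly all of these genes, and TWIST1 did not. Hairpins lay on both sides of the controls for 3 of the 9 members (CDH1, VIM and FN1), against 32.4% of genes above 0.

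Next, the change of TWIST1 was set against that of each other member within the same samples. The log2(FPKM + 1) of the other gene was subtracted from that of TWIST1, and the knockdown samples were compared with the controls by a two-sided exact permutation test. With 2 against 3 samples the smallest p that this exact permutation test can give is 0.1. TWIST1 moved upward relative to 7 of the 9 other members without overlap of the groups. The same held relative to 82.5% of the 16222 other genes above 0, so the count says little about the members themselves. Against FN1 the mean difference was 0.55 and against SNAI2 0.33 (each exact permutation p = 0.1, adjusted p = 0.18 over 9 comparisons). Against CDH1 it was 0.80 and against SNAI1 0.31 (each exact permutation p = 0.2, adjusted p = 0.257). TWIST2, ZEB2 and CDH2 were near 0, so their comparisons repeat the change of TWIST1 itself. Against ZEB1 the mean difference was 0.05 (exact permutation p = 1) and against VIM −0.09 (exact permutation p = 0.9).
With these genes the hairpins disagreed. The TWIST1 change exceeded that of VIM by 0.54 with shELK4_1 and fell short of it by −0.69 with shELK4_2 and −0.11 with shELK4_3. For ZEB1 the values were 0.38, −0.61 and 0.39.

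**Figure D3:**
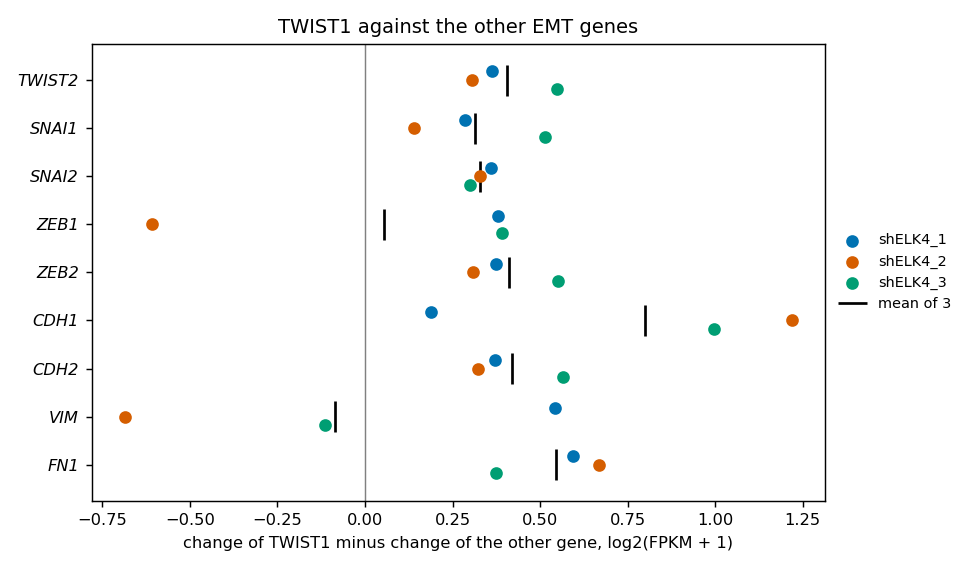
Change of TWIST1 minus the change of each other EMT gene, both against the mean of the 2 pLKO.1 samples, on log2(FPKM + 1) (x axis). Coloured points are the 3 hairpins and black ticks their means. The points lie to the right of 0 for 7 of the 9 genes, and ZEB1 and VIM have points on both sides.

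Genes with the pattern most like that of TWIST1 were sought by Pearson's r on log2(FPKM + 1) over the 5 samples. The 5 highest values among the 10780 genes were ARAP2, ARHGEF26, ARHGDIA, RBM15B and FKBP8, with r of 0.998 to 0.999. With 5 points such values are common, and 240 genes had an r of at least 0.95. ARHGEF26 had 1.87 and 2.15 FPKM in the controls, against 2.87, 2.73 and 3.54 in the 3 hairpins.

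The partners of TWIST1 were examined as a list of E proteins and ID proteins. E proteins (TCF3, TCF4 and TCF12) dimerize with TWIST1, and ID proteins sequester E proteins. Of the 7 genes, 5 reached the FPKM limit and 2 rose with an adjusted p under 0.05 from limma, against 0.167% of genes called. These were ID3, with 38.6 and 37.9 FPKM in the controls, against 83.4, 93.5 and 90.0 in the hairpins (adjusted p = 0.0147), and ID1, with 75.9 and 73.8 against 194, 153 and 150 (adjusted p = 0.0465). ID1 and ID3 thus lay above both controls with each hairpin, as TWIST1 did. Of the 10780 genes at the FPKM limit, 2061 did so too. The calls were lost over the genes above 0 (adjusted p = 0.0747 for ID3 and 0.145 for ID1 from limma), and also without either pLKO.1 sample, shELK4_1 or shELK4_3 (adjusted p up to 0.415 for ID3 and 0.621 for ID1). The log2 difference was 1.16 to 1.24 for ID3 and 1.005 to 1.19 for ID1 with each sample left out. ID1 and ID3 are among the genes that the study had called higher on these same samples. The list was chosen with earlier results of these data known, so their rise and their count are not independent evidence. For ID2 the samples were lower without overlap, as were 21% of genes at the FPKM limit. Its log2 difference was −0.19 (adjusted p = 0.488 from limma), and ID4 stayed below 1 FPKM. TCF3 had 17.4 and 18.6 FPKM in the controls, against 21.0, 14.0 and 21.6 in the hairpins, with overlapping groups. TCF12 overlapped too, and TCF4 did not exceed 0.00700 FPKM.

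Part of the epithelial structure genes had lower RNA with every hairpin, and none passed adjustment in the main limma test used here. Of 16 epithelial junction and keratin genes, 15 reached the FPKM limit, and their median log2 difference was −0.34, against −0.01 over all genes tested. With an unadjusted p under 0.05 from limma, 6 of the 15 were lower and 0 higher, against 8.14% of genes lower and 8.08% higher. KRT18 and ST14 are among these 6, and the study's own test had called both lower on these same samples after adjustment. The list was chosen with earlier results of these data known, so the count is not independent evidence. None of the 15 had an adjusted p under 0.05 (0 genes from limma). The groups did not overlap for 8 of the 15, all lower, against 21% of genes lower without overlap, and the other 7 overlapped the controls. KRT8 and KRT18, the paired keratins of simple epithelia, had 1071 and 1072 FPKM and 639 and 633 FPKM in the controls. In shELK4_1, shELK4_2 and shELK4_3 these values were 792, 583 and 670 for KRT8 and 396, 216 and 303 for KRT18. The adjusted p from limma was 0.108 for KRT8 and 0.117 for KRT18. ST14, the gene of the membrane protease matriptase, had 100.1 and 98.8 FPKM in the controls, against 59.5, 30.5 and 43.1 in the hairpins (adjusted p = 0.115 from limma). KRT19 had 728 and 772 FPKM against 611, 529 and 478 (adjusted p = 0.138 from limma). These 4 genes were named from those without overlap, so their position below the controls follows from that choice. The other 4 without overlap, named after their values were seen, were the junction genes OCLN, CLDN7, TJP1 and PKP2.

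By hairpin, the median change of these 15 genes was −0.10 with shELK4_1, −0.50 with shELK4_2 and −0.40 with shELK4_3. A fall of over 0.5 was seen for 2 of the 15 genes with shELK4_1, against 2.98% of tested genes. It was seen for 8 with shELK4_2, against 5.73%, and for 6 with shELK4_3, against 3.72%. The order of the hairpins was thus the same as for CDH1. Without shELK4 replicate 1, 13 of the 15 were lower with an unadjusted p under 0.05 (0 with an adjusted p under 0.05 from limma), against 9.27% of genes in that fit. Without pLKO.1 replicate 1 or replicate 2 it was 4 of the 15 each time, against 2.79% and 2.09% of genes. The 5 epithelial regulators at the FPKM limit had median changes of 0.18 with shELK4_1, −0.40 with shELK4_2 and −0.24 with shELK4_3. These medians had the order of CDH1, while single regulators differed. ESRP2, a splicing factor of epithelial cells, had 11.2 and 11.8 FPKM in the controls, against 8.87, 8.49 and 9.09 in the hairpins (adjusted p = 0.145 from limma). Its paralog ESRP1, named after its values were seen, had 25.5 and 25.6 FPKM, 38.9 with shELK4_1, 21.9 with shELK4_2 and 26.9 with shELK4_3. Of the 5 regulators at the FPKM limit, 1 was lower with an unadjusted p under 0.05 from limma and 0 were higher. Over all tested genes the shares were 8.14% lower and 8.08% higher.

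**Figure D4:**
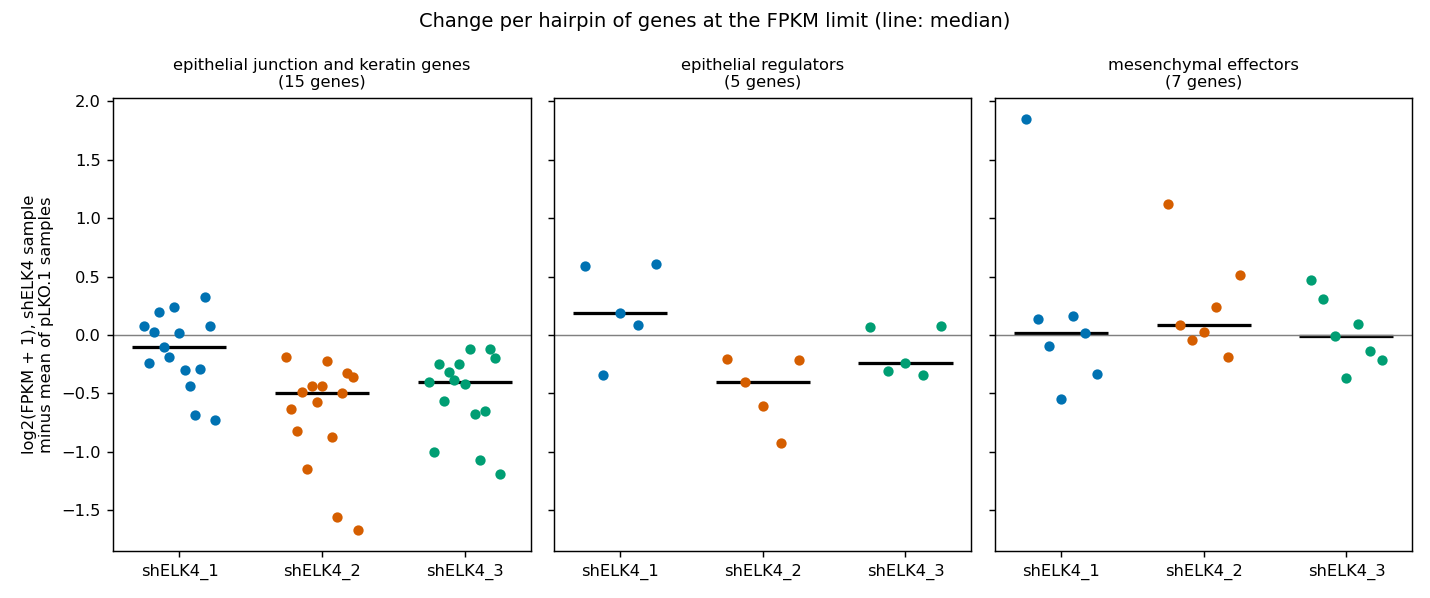
Difference in log2(FPKM + 1) between each shELK4 sample (x axis) and the mean of the pLKO.1 samples (y axis), for genes at the FPKM limit in 3 lists. Each point is a gene and each line the median. The junction and keratin genes have medians of −0.10, −0.50 and −0.40 with shELK4_1, shELK4_2 and shELK4_3, and the mesenchymal effectors have medians of 0.02, 0.08 and −0.01.

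Mesenchymal effectors other than the members were for the most part hardly expressed. Of 18 genes, 16 were above 0 and 7 reached the FPKM limit, with a median log2 difference of −0.01, as over all genes tested. With an unadjusted p under 0.05 from limma, 1 was higher and 0 lower, against 8.08% of genes higher and 8.14% lower. None had an adjusted p under 0.05 (0 genes). The 1 higher gene was S100A4, which encodes a calcium-binding protein linked to motility. It had 73.5 and 64.0 FPKM in the controls, 250 with shELK4_1, 150 with shELK4_2 and 95.3 with shELK4_3 (adjusted p = 0.207 from limma). Unlike VIM, it was highest with shELK4_1. COL1A1 and MMP14 also lay above both controls in each knockdown sample, with log2 differences of 0.18 and 0.16 (adjusted p = 0.449 and 0.430 from limma). Of the 7 genes at the FPKM limit, 3 were thus higher without overlap and 0 lower. Over the 10780 genes at that limit, 2061 were higher and 2261 lower without overlap. Of the collagen and matrix genes, LOX and POSTN were listed at 0 throughout.

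Among 15 further EMT factors and TGF-beta signalling genes, 9 reached the FPKM limit. Of these, 2 were lower with an unadjusted p under 0.05 from limma, against 8.14% of genes. SMAD7, an inhibitor in the TGF-beta pathway, had 6.42 and 6.98 FPKM in the controls, against 2.29, 0.937 and 2.28 in the hairpins. Its log2 difference was −1.48 (adjusted p = 0.0769 from limma). The study had called SMAD7 lower on these same samples, so its direction is not independent evidence. SMAD3, which carries the TGF-beta signal, had 20.9 and 19.8 FPKM against 16.0, 18.5 and 13.9 (adjusted p = 0.285 from limma). Both SMAD7 and SMAD3 were below the controls with each hairpin, as were 21% of genes at the FPKM limit. SMAD4 lay above the controls with a log2 difference of 0.14 (adjusted p = 0.473 from limma). So did 2061 of the 10780 genes at the FPKM limit. FOXC2, a forkhead factor below the FPKM limit, had 0.201 and 0.0524 FPKM in the controls, against 0.384, 0.361 and 0.569 in the hairpins (adjusted p = 0.224 from limma over the genes above 0). It thus lay above both controls with each hairpin, as TWIST1 did. Groups did not overlap, either way, for 33.6% of genes above 0. PRRX1 and GSC were listed at 0.

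Of 10 further cadherins and catenins, 5 reached the FPKM limit. Of these, 1 was lower with an unadjusted p under 0.05 from limma, against 8.14% of genes. CDH3, the gene of P-cadherin, had 29.7 and 30.5 FPKM in the controls, 25.2 with shELK4_1, 16.8 with shELK4_2 and 21.0 with shELK4_3 (log2 difference −0.51, standard error 0.16, adjusted p = 0.207 from limma). P-cadherin RNA was below the controls with each hairpin, as were 21% of genes at the FPKM limit. P-cadherin RNA was lowest with shELK4_2, as E-cadherin RNA was, but E-cadherin RNA was above the controls with shELK4_1. CTNNB1, CTNND1 and CTNNA1, the catenins of the cadherin complex, had overlapping groups, with log2 differences of −0.12, 0.13 and −0.05. CDH24 overlapped as well, and CDH4, CDH5, CDH6, CDH13 and CDH17 stayed below 0.05 FPKM.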

How the data were processed

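Poly(A)-selected RNA of 5 HCT116 samples (2 pLKO.1, 3 shELK4) was sequenced by the authors. They deposited FPKM values per gene, calculated with Cufflinks and scaled to the mapped reads of each sample. The submitters' processing notes name Trimmomatic 0.36, HISAT2 2.0.5, Cufflinks 2.2.1 and HTSeq 0.9.1. Genome build and annotation are not given in the sources used here. Groups and replicate numbers came from the sample titles. After 4 entries with repeated names were dropped, 20026 genes remained.

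Values were tested as log2(FPKM + 1) with limma 3.58.1 in R 4.3.3 (knockdown against control with no covariate, empirical Bayes with a mean-variance trend, Benjamini-Hochberg adjustment over all genes in the fit), at an adjusted p of 0.05. A pseudocount of 1 understates changes of low genes. The members and gene lists were chosen with earlier results of these data known. Of each list, up to 4 genes with the lowest p among those whose groups did not overlap were named. Gene positions and exons are from GENCODE release 44 (GRCh38), and promoter windows from RefSeq (GRCh38.p14). Tables and figures used Python 3.11.15. Alternatives were a pseudocount of 0.1, an FPKM limit of 0.1, 2 other scalings, group weights, a replicate block, and each sample left out. For the epithelial list, ID1 and ID3 they were added after the data were seen.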

Additional observations from a re-analysis of the deposited data

Results flagged for a closer look

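For 3 of the 9 members above 0, different hairpins lay on opposite sides of both controls, over 0.5 apart on log2(FPKM + 1). Opposite sides, at any distance, were seen for 32.4% of genes above 0 and 37.9% of genes at the FPKM limit. The count of 3 is thus near the share of all genes. For CDH1, shELK4_1 was above and shELK4_2 below both controls, 1.09 apart. For VIM, shELK4_2 was above and shELK4_1 below, 1.17 apart. For FN1, shELK4_3 was above and shELK4_2 below, 0.54 apart, and 14.1% of genes at the FPKM limit had a larger range. Each hairpin was 1 sample, so these differences were not tested. With 2 and 3 samples per group, no test for outlying samples was made.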

How the results depend on the processing

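The adjusted call was 0 members under each alternative run, at the FPKM limit and over the genes above 0. Most fits over the genes above 0 called no gene at all, as did the fit at the FPKM limit without shELK4 replicate 1. The fits without pLKO.1 replicate 1 or replicate 2 rest on 1 control, so their calls are not read. In all of these fits a count of 0 members says nothing about the members themselves. The count of members with an unadjusted p under 0.05 over the genes above 0 was 1, and 1 to 3 with each sample left out. Without shELK4 replicate 1 it was 3 (TWIST1, CDH1 and VIM), and without shELK4 replicate 3 it was 2 (TWIST1 and FN1). With the replicate block it was 2, also TWIST1 and FN1. Only replicate numbers 1 and 2 occur in both groups, so the block leaves shELK4_3 without weight. Deviations from the group means correlated at 0.078 and 0.023 for the same-numbered samples. With 2 controls these deviations mirror each other, so the values cannot tell whether same-numbered samples share more than a number. The count of members whose groups do not overlap was 1, and 1 to 4 with each sample left out. It was 4 without pLKO.1 replicate 1 or shELK4 replicate 1, 3 without pLKO.1 replicate 2 or shELK4 replicate 3, and 1 without shELK4 replicate 2, while TWIST1 was among them each time. Over the genes above 0, 46.6% to 48.6% then had groups without overlap. Changes of over 0.5 per hairpin rose from 5 of 27 to 10 with a pseudocount of 0.1. That pseudocount enlarges the changes of low genes, and the share of all genes under it was not calculated. The rise thus says nothing about the members themselves, and the counts per hairpin above hold for a pseudocount of 1. The log2 difference of TWIST1 was 0.33 to 1.40 over 11 alternatives (adjusted p = 0.111 to 0.743 from limma). Reversed signs were found near 0 only: SNAI2 with the replicate block and without shELK4 replicate 3 (−0.0099 each, and up to 0.13 with each sample left out), and, without pLKO.1 replicate 2, ZEB2 (0.0041, down to −0.014 with each left out) and CDH2 (0.0038, down to −0.032). VIM could not be fitted at the FPKM limit without shELK4 replicate 2 or 3. With group weights, 4 of the 15 epithelial genes had a lower level with an adjusted p under 0.05 from limma, against 1.91% of genes, and 9 an unadjusted one, against 12.3%. The ID1 call was also lost with a pseudocount of 0.1 and with median-of-ratios scaling (adjusted p = 0.0549 each from limma). FPKM values carry no depth, so no counting error is given for genes below 1 FPKM.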
